A study of Mus musculus with 29 samples.

Results

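The cholesterol synthesis genes described here are 8 genes driven by SREBP2, namely Hmgcs1, Idi1, Fdps, Fdft1, Sqle, Lss, Cyp51 and Insig1. They were chosen by name and matched to the Ensembl identifiers of the count table, in which they are 8 of 56748 genes. Of these 8, 7 passed the filter on low counts and were among the 12353 genes tested, and Fdps was not.

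RNA was sequenced from the aortic arch of F1 hybrid C57BL6J/FVB mice, each mouse giving 1 sample and every group holding both sexes (17 males and 11 females in all). Ercc1Δ/- mice carry a null and a truncated allele of the DNA repair gene Ercc1 in every cell and age early, and their littermates served as wild type (WT). Ad libitum feeding (AL) was studied in 5 WT and 5 Ercc1Δ/- mice at 6 weeks and in 4 WT and 4 Ercc1Δ/- mice at 22 weeks. Dietary restriction (DR) of 30%, begun at 7 weeks and complete from 9 weeks of age, was studied in 5 WT and 5 Ercc1Δ/- mice at 22 weeks, and all mice ate the same pelleted diet.

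Cells make cholesterol from acetyl-CoA along the mevalonate pathway, and the enzymes of that pathway are switched on together when the membranes of the endoplasmic reticulum run low in sterol. The SCAP protein then carries the precursor of the transcription factor SREBP2 to the Golgi, where proteases release its active part. When sterol is plentiful, the INSIG proteins hold SCAP back and oxysterols activate LXR, which turns on genes of cholesterol efflux. In the vessel wall, lipid-laden macrophages and smooth muscle cells are known for handling cholesterol through these opposing arms.

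The members follow the order of the pathway. Hmgcs1 joins acetyl-CoA and acetoacetyl-CoA to HMG-CoA, Idi1 isomerises isopentenyl diphosphate, and Fdps builds farnesyl diphosphate. Fdft1, squalene synthase, commits farnesyl diphosphate to sterols. Sqle then adds oxygen to squalene, Lss closes the rings to lanosterol, and Cyp51 removes a methyl group from lanosterol. Insig1 is no enzyme but the sterol-regulated brake on SCAP.

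Promoters were read from RefSeq (GRCm38.p6) for the 5 members that its table holds, which are Hmgcs1, Idi1, Lss, Cyp51 and Insig1. Sqle, Fdft1 and Fdps are named only. The 250 bases before the annotated start are printed for 3 of them, Hmgcs1 and Cyp51 as the enzymes most correlated with the other members and Insig1 as the regulator. Capitals mark matches on either strand to the sterol response element TCACNCCAC, the CCAAT box, the GC box GGGCGG and the E-box CACGTG.
Hmgcs1, chr13:119690101-119690350, plus strand: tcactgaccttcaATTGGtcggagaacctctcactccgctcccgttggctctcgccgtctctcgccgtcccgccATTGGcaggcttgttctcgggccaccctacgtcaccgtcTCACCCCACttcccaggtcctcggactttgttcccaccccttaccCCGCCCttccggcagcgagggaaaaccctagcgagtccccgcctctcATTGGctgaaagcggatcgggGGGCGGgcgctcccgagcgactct
Insig1, chr5:28071162-28071411, plus strand: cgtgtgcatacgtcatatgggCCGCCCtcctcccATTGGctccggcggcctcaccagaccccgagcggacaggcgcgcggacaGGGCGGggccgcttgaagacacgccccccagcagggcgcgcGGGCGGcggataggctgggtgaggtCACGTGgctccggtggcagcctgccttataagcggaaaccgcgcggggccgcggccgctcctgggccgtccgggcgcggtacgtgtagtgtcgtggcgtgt
Cyp51, chr5:4104698-4104947, minus strand: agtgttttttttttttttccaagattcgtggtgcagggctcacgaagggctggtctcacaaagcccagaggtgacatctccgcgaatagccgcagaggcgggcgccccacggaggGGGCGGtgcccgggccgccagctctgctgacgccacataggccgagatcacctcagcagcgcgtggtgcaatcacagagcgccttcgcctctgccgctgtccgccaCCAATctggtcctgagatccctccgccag

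All 5 promoters held a CCAAT box and all 5 a GC box, against 33.8% and 32.7% of the 32851 promoter windows in the table. The sterol response element letters occurred once, as TCACCCCAC beginning 137 bases before the start of Hmgcs1, and were found in 1.05% of all windows. The E-box letters occurred in Insig1 alone and in 6.02% of all windows. These matches describe letters only.

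Total counts over genes ran from 921167 to 9616382 per mouse, with the lowest group median, 1576566, in Ercc1Δ/- mice on DR. A further WT 22-week AL library, number 003, held 400410 counts and was left out for its low depth. Ercc1 itself was lower in Ercc1Δ/- than in WT mice in each genotype comparison, by log2 fold changes of -1.41 at 6 weeks, -0.96 at 22 weeks AL and -1.01 at 22 weeks DR. Smooth muscle markers dominated every sample, with summed normalized counts of 65760 to 166300. Their sums were 124000 to 166300 in WT mice and 65760 to 127300 in Ercc1Δ/- mice. In bulk tissue, fewer cells of a type and less RNA per cell cannot be told apart. Schwann cell markers summed to 6264 in WT 6-week mouse 001 and to at most 1221 in every other mouse, and blood markers were also highest there (5720). Skeletal muscle markers summed to 783.8 in Ercc1Δ/- 22-week AL mouse 013 and to at most 43.1 elsewhere.

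All values below are counts normalized by TMM to the mean library size of 3703241, and they are given as group mean ± SD with n mice. Per kilobase of exon, Hmgcs1 had the highest mean level over the 28 mice (44.1 ± 9.0 normalized counts per kb), followed by Fdft1 (40.4 ± 9.6) and Insig1 (35.2 ± 11.4). These 3 overlapped within their SDs. Cyp51 stood below them at 15.4 ± 3.9 and above the remaining 3. Sqle (7.39 ± 1.99), Lss (7.28 ± 1.34) and Idi1 (6.45 ± 2.34) also overlapped within their SDs. These SDs give the spread over the mice of all 6 groups, and differences between genes were not tested. By this measure Hmgcs1 lay at the 76.6th percentile of tested genes and Idi1 at the 20.7th. By mean count, not divided by length, the percentile was 41.8 for Lss, 35.1 for Sqle and 12.1 for Idi1, which rests on the fewest reads of the tested members. Because reads were counted over gene bodies, introns included, the levels were also divided by the length of the whole gene. Then Insig1 came first and Cyp51 last, and only Lss kept its place. Fdps had 0 to 7 raw counts per mouse and 61 over the 28 mice, and no mouse passed the minimum of 10. Idi1 had 3 to 60 raw counts, and 5 Idi1 pseudogenes with 30 counts in all are annotated in the table, so reads of Idi1 shared with them are uncertain.

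**Figure D1:**
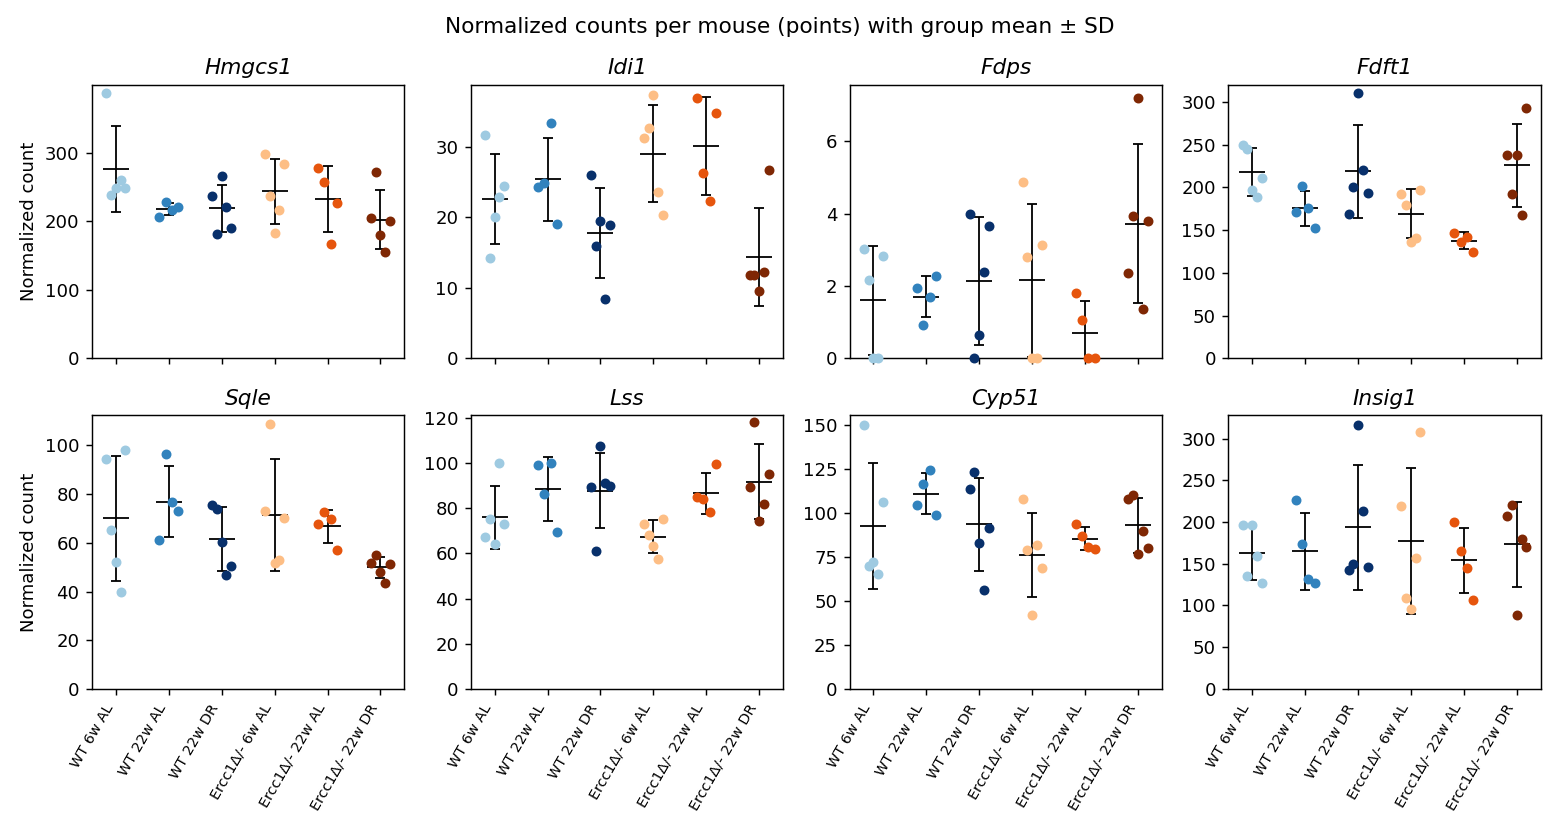
Normalized counts of the 8 genes (vertical axes, each from 0) in the 6 groups of mice, with points for mice and black bars for group mean ± SD. Fdft1 lies between 124.4 and 146.9 in Ercc1Δ/- 22-week AL mice and between 167.7 and 293.3 in Ercc1Δ/- mice on DR, Fdps reaches at most 7.2 and most other groups overlap.

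The first question was whether the pathway differed between genotypes. At 6 weeks none of the 7 tested members passed the threshold (an adjusted p of at most 0.05 and a change of at least 1.2-fold), where 211 of all tested genes did (1.71%). At 22 weeks AL none passed either, against 1486 genes (12.0%). On DR again none passed, against 1601 genes (13.0%). The members' median log2 fold change was -0.14 at 6 weeks, -0.02 at 22 weeks AL and -0.14 at 22 weeks DR, beside medians of all tested genes of 0.02, 0.03 and 0.00.

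Fdft1 was the member with the smallest unadjusted p in both AL genotype comparisons. At 6 weeks its counts were 188, 197, 211, 244 and 249.8 in the WT mice (mean 218 ± 27.8, n = 5) and 136, 141, 179.6, 192 and 197 in the Ercc1Δ/- mice (169 ± 28.8, n = 5). The Ercc1Δ/- mice lay lower, with overlap at the upper end of their range. The log2 fold change was -0.37 ± 0.12 (SE, unadjusted p = 0.00573, adjusted p = 0.148 by edgeR).

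At 22 weeks AL, Fdft1 counts were 153, 172, 176 and 202.1 in WT mice (175.6 ± 20.4, n = 4) and 124, 136.5, 142 and 147 in Ercc1Δ/- mice (137.5 ± 9.7, n = 4). The groups did not overlap. Among all tested genes 18.6% did not overlap in this comparison. The log2 fold change was -0.35 ± 0.14 (adjusted p = 0.116). With all libraries thinned to the smallest total, 921167, in 1 random draw, it turned to 0.17. With only these groups fitted, Fdft1 passed as lower.

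Cyp51 was likewise separated at 22 weeks AL. It had 98.7, 104.7, 116.5 and 124.7 normalized counts in the WT mice (111 ± 11.7, n = 4). It had 79.6, 80.9, 87.2 and 93.8 in the Ercc1Δ/- mice (85.4 ± 6.5, n = 4), so all of these lay below all WT mice. Groups were separated in this comparison for 18.6% of all tested genes. Its log2 fold change was -0.38 and at 6 weeks -0.34, and neither passed. The last 7895 bases of Cyp51 overlap Akap9, a scaffold protein gene, on the opposite strand. Akap9 had 5443 reads over the 28 mice against 2714 for Cyp51, and the strand setting of the counting is not given in the sources used here, so reads in this stretch are uncertain. The log2 fold change of Akap9 was -0.15 at 22 weeks AL (adjusted p = 0.458). Sqle was at -0.31 at 22 weeks AL and -0.32 on DR, and Idi1 at 0.30 at 6 weeks, 0.32 at 22 weeks AL and -0.33 on DR, all short of the threshold. Thinned to that total in the same draw, Idi1 turned to -0.17 at 22 weeks AL and to 0.70 on DR. The other tested members lay within -0.18 to 0.16 at 6 weeks, -0.02 to 0.12 at 22 weeks AL and -0.15 to 0.06 on DR.

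The comparison of ages asked whether the pathway moved between 6 and 22 weeks of AL feeding. No member passed in WT mice, where 29 genes did (0.235%), or in Ercc1Δ/- mice, where 576 genes did (4.66%). Fdft1 was lower at 22 weeks in both genotypes, by a log2 fold change of -0.33 ± 0.13 in WT (unadjusted p = 0.0157, adjusted p = 0.422) and -0.30 ± 0.14 in Ercc1Δ/- mice (unadjusted p = 0.0387, adjusted p = 0.25). These comparisons share no mice with each other but share theirs with the genotype comparisons.

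Hmgcs1 in WT mice had 238, 248, 249, 259.6 and 387 normalized counts at 6 weeks (276 ± 62.4, n = 5) and 207, 216, 221 and 228 at 22 weeks (218 ± 8.9, n = 4). Every 6-week mouse was above every 22-week mouse, as for 3.85% of all tested genes, and the highest value was that of mouse 001, whose Schwann cell markers stood apart. The log2 fold change was -0.35 ± 0.16 (unadjusted p = 0.0378, adjusted p = 0.53), and without that mouse it was -0.16. Lss in Ercc1Δ/- mice went the other way. It had 57.4, 63.2, 67.9, 73.1 and 75.1 at 6 weeks (67.3 ± 7.3, n = 5) and 78.1, 84.0, 84.7 and 99.5 at 22 weeks (86.6 ± 9.1, n = 4). The ages did not overlap, as for 6.78% of tested genes, and the log2 fold change was 0.37 ± 0.15 (unadjusted p = 0.0261, adjusted p = 0.205). For the genotype by age interaction no member passed, where 104 genes did (0.842%), and the member values ran from -0.22 to 0.30 (Hmgcs1).

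**Figure D2:**
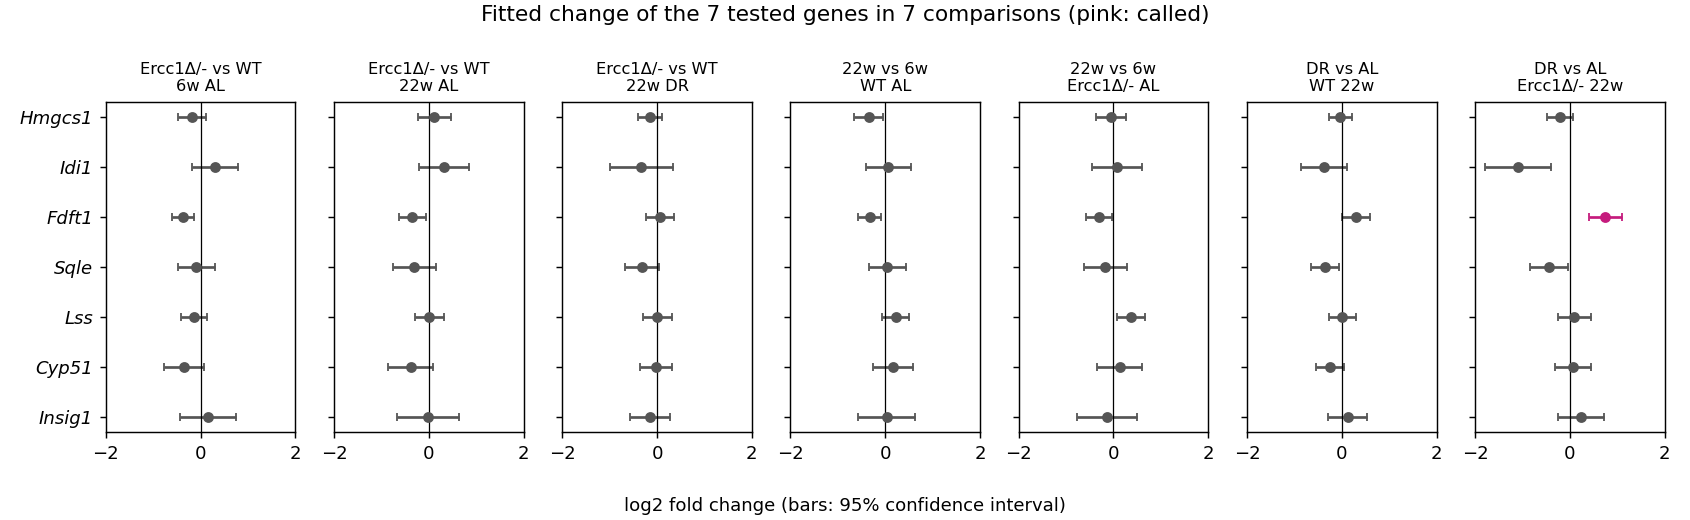
Log2 fold change of the 7 tested genes (horizontal axes) in 7 comparisons (panels), with bars for the 95% confidence interval and pink for a call. Fdft1 in Ercc1Δ/- mice on DR against AL, at 0.75, is the only call, and Idi1 in the same panel has the largest change in size, -1.09, with a wide interval.

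Dietary restriction gave the only call among the members. Fdft1, the enzyme that commits farnesyl diphosphate to sterols, rose 1.68-fold in Ercc1Δ/- mice on DR. Its counts were 124, 136.5, 142 and 147 in the AL mice (137.5 ± 9.7, n = 4) and 167.7, 193, 237, 238 and 293 in the DR mice (226 ± 48.2, n = 5). Every DR mouse lay above every AL mouse, as for 5.02% of all tested genes. The log2 fold change was 0.75 ± 0.18 (95% confidence interval 0.40 to 1.096, adjusted p = 0.0318). In this comparison 203 of the tested genes passed (1.64%), 80 of them higher (0.648%), and 1 of 7 members.

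The call stood near the threshold. Leaving out each mouse in turn gave log2 fold changes of 0.62 to 0.92, and leaving out any of the 4 AL mice or DR mice 006, 016 or 029 raised the adjusted p to between 0.0533 and 0.0906. The DR libraries held 921167 to 2572523 counts and the AL libraries 1294980 to 3855444. With every library thinned to 921167 counts the log2 fold change was 0.69 and no longer passed (adjusted p = 0.649), and 4 further draws gave 0.63 to 0.75. White and brown fat markers summed to 4840 to 13330 on DR and 3490 to 13960 on AL, macrophage markers to 1516 to 4576 and 2220 to 4065, endothelial markers to 3244 to 5369 and 2239 to 4040, and smooth muscle markers to 92050 to 100200 and 65760 to 101100. Macrophage markers also changed on DR, in the direction opposite to Fdft1. Of the 9, 7 were lower and 2 higher, and the list's median was -0.92 (log2 fold change). The threshold was passed by 5 of those lower, where 0.996% of all tested genes were called lower. In 4 of the 5 DR mice their sum (1516 to 1926) lay below that of every AL mouse, the exception being mouse 016 (4576). Without mouse 016 the log2 fold change of Fdft1 was 0.72 (adjusted p = 0.0547). The sums of the other 3 lists overlapped between the diets with no marker called. Endothelial markers were higher on DR for 7 of 8 (median log2 fold change 0.39), fat markers for 8 of 10 (0.36) and smooth muscle markers for 6 of 8 (0.17). The part of all these cells in the result was not tested.

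The last 1184 bases of Fdft1 (chr14:63382189-63383372, GRCm39) overlap Ctsb, the gene of the lysosomal protease cathepsin B, on the opposite strand. Ctsb is counted far more deeply, with 103922 reads over the 28 mice against 5427 for Fdft1. Reads were counted over gene bodies from a library kit that keeps strand, but with its strand setting unknown reads in this stretch are uncertain. Ctsb had 4264 ± 472 normalized counts in the AL mice (n = 4) and 3445 ± 77.3 in the DR mice (n = 5), a log2 fold change of -0.29 (adjusted p = 0.0618), opposite in sign to Fdft1.

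In WT mice Fdft1 counts were 153, 172, 176 and 202.1 on AL and 168, 193, 200.2, 220.5 and 310.4 on DR (219 ± 54.6, n = 5). The diets overlapped, and the log2 fold change of 0.29 did not pass (adjusted p = 0.422). No member passed in WT mice, where 161 genes did (1.30%). The difference of the diet effect between genotypes was 0.46 for Fdft1 (unadjusted p = 0.063, adjusted p = 0.606), so the effect was not shown to differ between genotypes. No member passed that interaction, where 12 genes did (0.0971%). Its other values of 1.2-fold or more were 0.30 for Cyp51 and -0.71 for Idi1. With the libraries thinned in the same draw, the 3 differences were -7.29e-05 for Fdft1, -0.0157 for Cyp51 and 0.82 for Idi1.

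Sqle and Idi1 lay lower on DR in both genotypes, without a call. Sqle in Ercc1Δ/- mice had 57.2, 67.6, 69.7 and 72.5 on AL (66.8 ± 6.7, n = 4) and 43.6, 48.0, 51.4, 51.8 and 55.1 on DR (50.0 ± 4.3, n = 5). The diets did not overlap, as for 5.02% of all tested genes. The log2 fold change was -0.44 ± 0.21 (unadjusted p = 0.0454, adjusted p = 0.317), and in WT mice, whose diets overlapped, it was -0.35 ± 0.15 (unadjusted p = 0.0274, adjusted p = 0.306). The last 617 bases of Sqle overlap Washc5 on the opposite strand (3949 reads against 2012 for Sqle), which leaves reads there uncertain in the same way. The log2 fold change of Washc5 on DR was -0.09 in Ercc1Δ/- mice (adjusted p = 0.785) and 0.21 in WT mice (adjusted p = 0.43). Between genotypes at 22 weeks AL, Washc5 was called higher in Ercc1Δ/- mice (0.48, adjusted p = 0.0094).

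Idi1 in Ercc1Δ/- mice had 22.3, 26.3, 34.8 and 37.0 on AL (30.1 ± 6.9, n = 4) and 9.6, 11.8, 11.8, 12.3 and 26.7 on DR (14.4 ± 6.9, n = 5). DR mouse 029 lay among the AL mice and the other DR mice below them. These rest on 3 to 14 raw counts per DR mouse, and the log2 fold change was -1.09 ± 0.36 (unadjusted p = 0.00542, adjusted p = 0.119). In WT mice it was -0.38, short of the threshold. The other members lay within -0.24 to 0.13 in WT and -0.21 to 0.23 in Ercc1Δ/- mice. Exact permutation of the group means (two-sided, 7 members in 7 comparisons) gave p of at most 0.05 in 8 of 49 cases and none after adjustment over the 49, where the smallest was 0.195. The smallest unadjusted p it allows is 0.0286 for 4 against 4 mice and 0.00794 in the other designs. In the edgeR fits over the 7 members and 9 comparisons, 10 of 63 values had an unadjusted p under 0.05 and 1 was called. Unadjusted p under 0.05 was reached by 8.65% to 26.1% of all tested genes, depending on the comparison.

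The rest of the pathway was read from lists of enzymes, regulators and transporters. The mevalonate arm and the squalene and sterol arm were read for 20 enzymes, 6 of them tested members, and 19 were tested. Fdft1 on DR in Ercc1Δ/- mice was their only call in any comparison. At 22 weeks AL, 12 of the 19 were higher and 7 lower in Ercc1Δ/- mice, and their log2 fold changes had a median of 0.12. On DR against AL in Ercc1Δ/- mice, 6 were higher and 13 lower, with a median of -0.21 beside 0.00 for all tested genes.

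Of the 11 regulators, Srebf2, which encodes SREBP2 itself, had 634 ± 93.5 normalized counts in WT and 443 ± 66.4 in Ercc1Δ/- mice at 22 weeks AL (n = 4 each), a log2 fold change of -0.54 (adjusted p = 0.0714). On DR it was lower in Ercc1Δ/- mice by a passing -0.38 (adjusted p = 0.0218), with 493 ± 75.5 in WT and 375 ± 41.8 in Ercc1Δ/- mice (n = 5 each). Insig2, a counterpart of Insig1 that SREBPs do not induce, was higher there at 0.42 (adjusted p = 0.0218). Mbtps1, the site-1 protease that cleaves SREBPs, fell in Ercc1Δ/- mice against WT at 22 weeks AL (-0.34, adjusted p = 0.015) and between 6 and 22 weeks in Ercc1Δ/- mice (-0.45, adjusted p = 0.00229). Of all tested genes, 12.0% passed between genotypes at 22 weeks AL and 13.0% between genotypes on DR. Between 6 and 22 weeks in Ercc1Δ/- mice, 4.66% passed. Srebf1 and Scap passed in no comparison, with log2 fold changes of -0.04 to 0.13 for Srebf1 and -0.12 to 0.19 for Scap. Neither did Insig1 itself.

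At 22 weeks AL, 3 of the 8 uptake and transport genes read here rose in Ercc1Δ/- mice, where 5.87% of all tested genes did. They were Mylip (0.71), which encodes a sterol-induced ubiquitin ligase, Npc2 (0.54), a lysosomal cholesterol carrier, and Lipa (0.66), lysosomal acid lipase. Of the 7 tested LXR and efflux genes, 4 rose in the same comparison. The median log2 fold change was 0.24 for the first list and 0.67 for the second, beside 0.03 for all tested genes. Those of the second were Abcg1 (2.15, 4.44-fold) and Abca1 (0.84), the cholesterol exporters, Apoe (0.67), which encodes the lipoprotein that accepts the exported lipid, and Nr1h3 (0.72), which encodes LXRα. Abcg1 had 18.9 ± 2.8 normalized counts in WT and 73.8 ± 11.3 in Ercc1Δ/- mice (n = 4 each). On DR, Mylip (0.82), Lipa (0.45), Abca1 (0.50) and Abcg1 (1.93) passed in the same direction in Ercc1Δ/- against WT mice, where 5.93% of tested genes were called higher. Between 6 and 22 weeks in Ercc1Δ/- mice Abcg1 (1.84), Lipa (0.46) and Apoe (0.58) rose (2.11% of tested genes), and for Abcg1 the genotype by age interaction passed (1.99, adjusted p = 0.0137). On DR against AL, and between genotypes at 6 weeks, no gene of either list passed. Macrophage markers, a list of 9 genes with none at 0 throughout a group, summed to 1027 to 1534 in WT and 2220 to 4065 in Ercc1Δ/- mice at 22 weeks AL, and 7 of the 9 were called higher. Fat markers summed to 3176 to 5103 in WT and 3490 to 13960 in Ercc1Δ/- mice, with 9 of 10 higher, a median log2 fold change of 0.98 and none called. Smooth muscle markers were called lower for 7 of 8, where 6.16% of all tested genes were called lower. The part of these cells in the changes was not tested.

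Of the non-sterol branch, 1 of 6 genes passed, Pdss1 of ubiquinone synthesis, higher in Ercc1Δ/- mice at 22 weeks AL (0.91, adjusted p = 0.0422), where 12.0% of tested genes passed. Of 8 SREBP1 lipogenesis genes, Scd2, a fatty acid desaturase, was the only one that passed. Of all tested genes, 12.0% passed between genotypes at 22 weeks AL, 13.0% between genotypes on DR and 1.64% for DR against AL in Ercc1Δ/- mice. Scd2 was higher in Ercc1Δ/- than in WT mice at 22 weeks AL (0.70) and DR (0.38), and lower on DR than on AL in Ercc1Δ/- mice (-0.49). In that diet comparison 7 of the 8 genes were higher and 1 lower, without a call for those higher. Their median log2 fold change was 0.75, beside -3.6e-05 for all tested genes. Fat markers were higher for 8 of 10 in the same comparison, with a median of 0.36 and none called. The part of fat cells in the lipogenesis values was not tested.

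**Figure D3:**
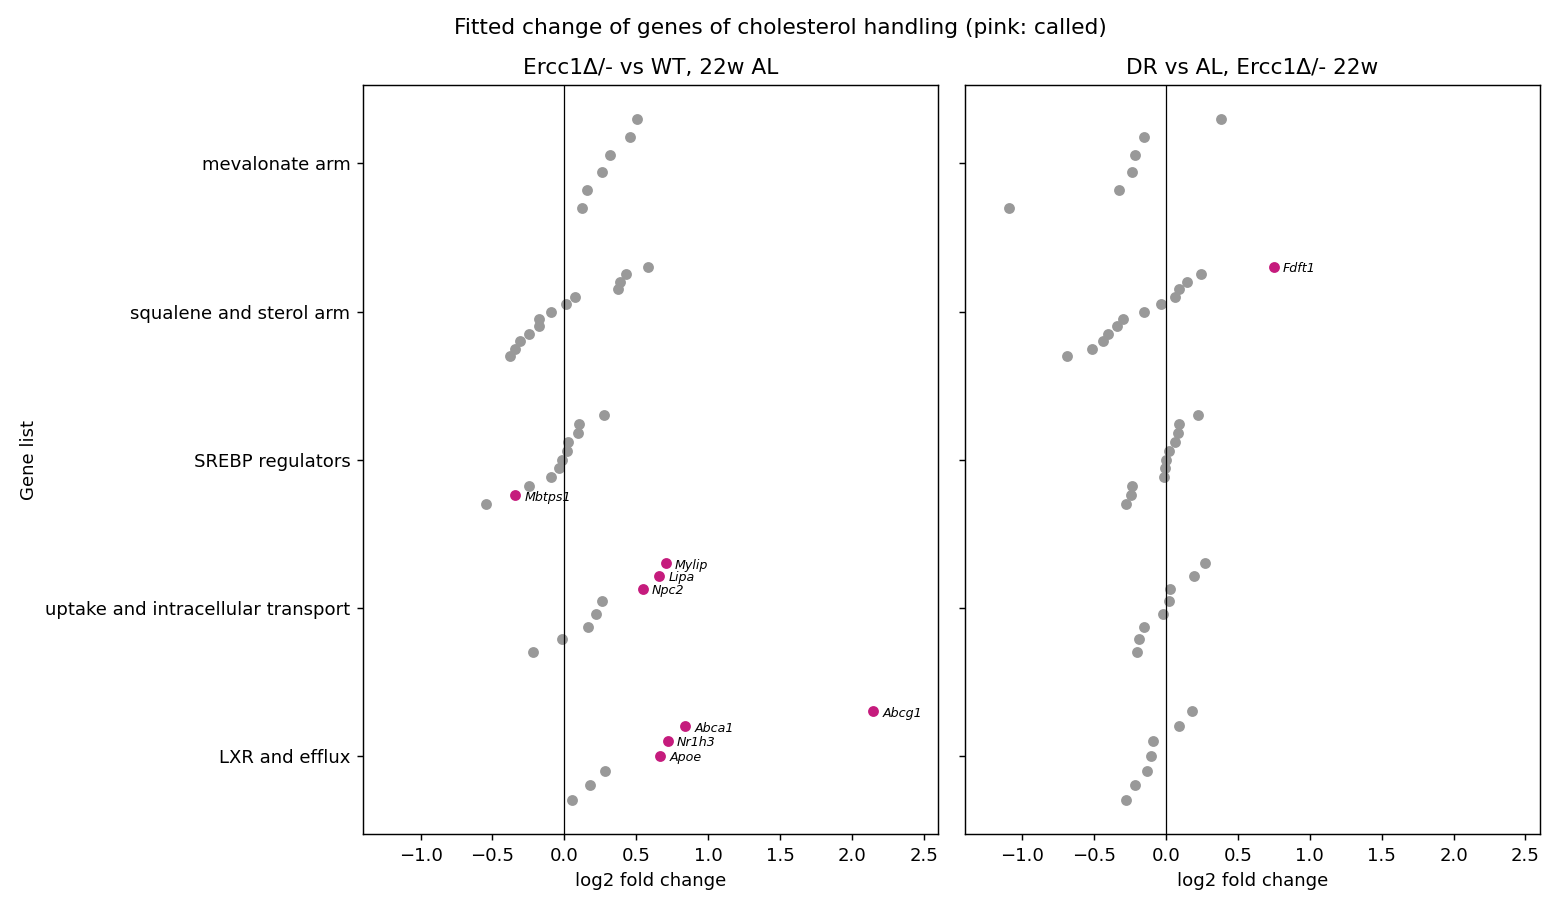
Log2 fold change (horizontal axes) of each tested gene in 5 lists of cholesterol handling, for Ercc1Δ/- against WT mice at 22 weeks AL (left) and DR against AL in Ercc1Δ/- mice (right), with calls in pink and named. Calls lie in the regulator, uptake and efflux lists on the left, led by Abcg1 at 2.15, and only at Fdft1 (0.75) on the right.

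Members were next compared among mice of the same group, with log2 values centred on each group's mean. Over the 28 mice, Pearson's r between 2 members ran from -0.19 to 0.67 in the 21 pairs, with a median of 0.26 and 17 above 0. The highest were Sqle with Cyp51 (0.67) and Hmgcs1 with Insig1 (0.57). Values of a mouse share its library and its depth. Without mouse 001 the range was -0.16 to 0.62 and the median 0.25. Hmgcs1 followed the mean of the other 6 members most closely (r = 0.72, Spearman's rho = 0.72, and r = 0.64 without the 2 mice farthest from the median), and stood first among the 12347 genes so ranked. Lss (0.23) and Idi1 (0.26) followed least. Within groups Insig1 was the most variable member, with an SD of 0.48 on the log2 scale, at the 84.7th percentile of tested genes, and Lss the least, with 0.23 at the 40.9th.

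The non-member genes most like the mean of the 7 members were Pcyt2 (r = 0.74), an enzyme of phosphatidylethanolamine synthesis, Fscn1 (0.74), Eif5a (0.71), Plekhb1 (0.70), Bmp2 (0.69), Tnfrsf23 (0.69), Atf3 (0.69), Notch4 (0.68), Brk1 (0.67) and Bphl (0.67), over 28 mice. The most opposite were Mical2 (-0.83), Dek (-0.78) and Usp7 (-0.77). Of these 10 most alike genes, 4 stayed among the first 10 when values were not centred within groups (Atf3, Eif5a, Plekhb1 and Fscn1). Of the listed pathway genes outside the members, Nsdhl (0.60, rank 61 of 12353) and Srebf1 (0.58, rank 84) were the most alike, and Srebf2 lay at 0.20.

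**Figure D4:**
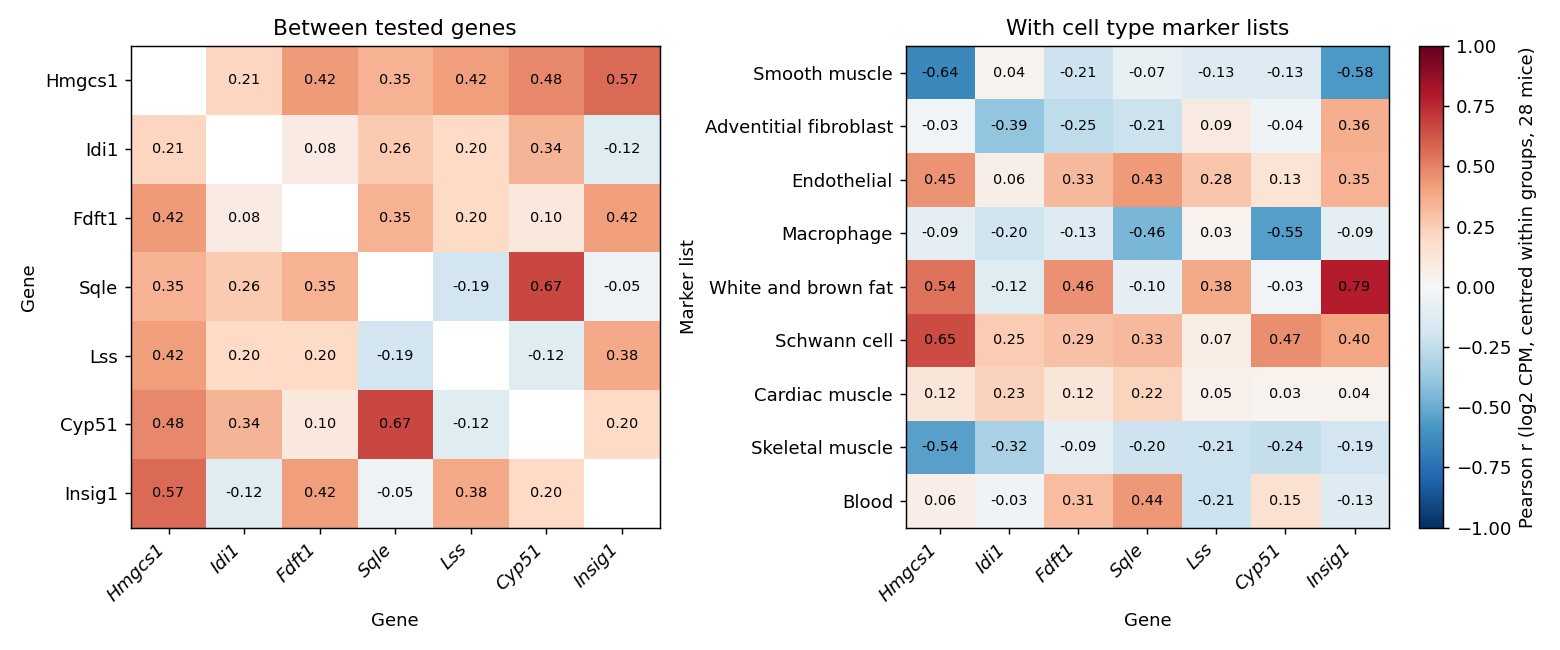
Pearson's r over 28 mice, from log2 CPM values centred within groups, between the 7 tested genes (left) and between each of them and the mean of 9 cell type marker lists (right), with red above and blue below 0. Sqle with Cyp51 (0.67) and Insig1 with the fat markers (0.79) are the highest values in their panels.

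Insig1, which adipocytes express strongly, moved with the fat markers of the samples. Its r with the mean of the 10 white and brown fat markers was 0.79 (rho = 0.80), and 0.82 without the 2 mice farthest from the median. WT DR mouse 017 and Ercc1Δ/- 6-week mouse 027 had the highest Insig1 in their groups, 316 and 308, and the highest fat marker sums, 13300 and 15510. Hmgcs1 (0.54), Fdft1 (0.46) and Lss (0.38) correlated with the same markers to a lesser degree, whereas Sqle (-0.10), Cyp51 (-0.03) and Idi1 (-0.12) stayed near 0. Sqle (-0.46) and Cyp51 (-0.55) were instead negatively correlated with macrophage markers, and Hmgcs1 (-0.64) and Insig1 (-0.58) with smooth muscle markers. The mean of the 7 members had an r of 0.59 with Schwann cell markers over all mice and 0.51 without mouse 001, of 0.48 and 0.52 with endothelial markers and of 0.46 and 0.51 with fat markers. It had -0.41 and -0.40 with smooth muscle markers and -0.36 and -0.31 with macrophage markers. The part of these cells in the members' values was not tested.

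**Figure D5:**
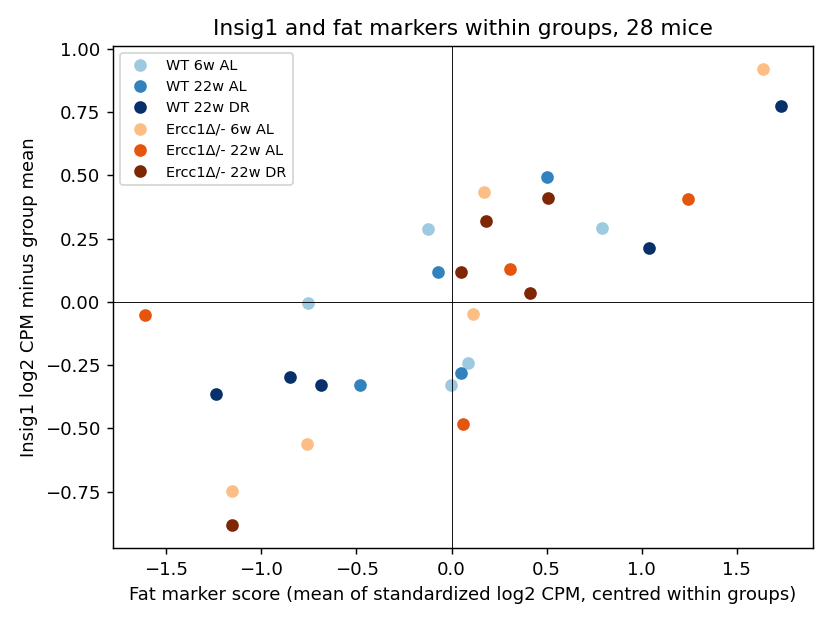
Insig1 log2 CPM minus the group mean (vertical axis) against a fat marker score centred within groups (horizontal axis), 1 point per mouse, coloured by group. The points rise together (r = 0.79 over 28 mice) in a band that runs across all 6 groups.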

How the data were processed

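Per the labels and the paper's methods, the authors made libraries with a directional kit and unique molecular identifiers, aligned reads with STAR 2.7.10a to GRCm39, removed duplicates with UMI-tools 1.1.2 and counted reads over gene bodies with HTSeq 2.0.2. They deposited raw counts, without normalization. The 5 HTSeq summary lines stayed out of library sizes and tests. Ambiguous reads were 1.4% to 1.82% and multiply aligned reads 3.66% to 7.06% of each sample. Gene names and positions came from GENCODE vM39 by Ensembl identifier, which named 56017 of 56748 genes.

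Genes with over 10 counts in over 10 of the 28 samples were tested with edgeR 4.0.16 (quasi-likelihood F test, TMM, group and sex as terms, R 4.3.3) and Benjamini-Hochberg adjustment over all 12353. AL samples (18) and 22-week samples (18) were fitted separately. A call required an adjusted p of at most 0.05 and 1.2-fold, and interactions no fold. Correlations used log2 CPM with a prior count of 2. Intervals are 1.96 SE. Litters and dissection days are not given in the sources used here.

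The members and lists were chosen with earlier results of these data known. All 8 members, 4 fixed regulators, listed genes that were called, and the 10 most and 3 least similar genes are named. Some genes of these lists are not reported here, and counts over the lists leave them out. In counts simulated on these libraries, 52% of genes changed by log2 0.75 and 88% of those changed by 1.5 were recovered for DR against AL in Ercc1Δ/- mice, over 12353 genes. Alternatives were DESeq2 1.42.0, RLE scaling, no filter, library 003 added, no sex term, other sets of groups, thinning to the smallest library, a test against the fold threshold, and each sample left out.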

Additional observations from a re-analysis of the deposited data

Results flagged for a closer look

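Of 42 sets of 1 tested member in 1 group, 2 held a mouse whose gap to its nearest neighbour was past Dixon's 95% critical value, and chance alone flags about 1 in 20 such sets. Hmgcs1 was 387 normalized counts in WT 6-week AL mouse 001, where the other 4 mice lay between 238 and 259.6. Idi1 was 26.7 in Ercc1Δ/- 22-week DR mouse 029, on 14 raw counts, where the others lay between 9.6 and 12.3.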

How the results depend on the processing

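Counts of called members stayed at 0 or 1 in every alternative. For Fdft1 on DR in Ercc1Δ/- mice the count fell from 1 to 0 when only those groups were fitted (log2 fold change 0.65, adjusted p = 0.0516), when libraries were thinned to the smallest total of 921167 (0.69, adjusted p = 0.649) and when tested against the fold threshold (0.75, adjusted p = 0.215). Leaving out 1 sample gave counts of 0 to 1. Fitting only the groups compared made Fdft1 a call for genotype at 22 weeks AL (count 1, log2 fold change -0.42, adjusted p = 0.0327). Of the 23 member values given singly, 17 kept their sign in every alternative, and 6 turned under thinning, for Idi1 to -0.17 at 22 weeks AL, 0.70 on DR and 0.82 in the diet interaction, for Fdft1 to 0.17 at 22 weeks AL and -7.29e-05 in the diet interaction, and for Cyp51 to -0.0157 in the diet interaction. In 4 further draws of the thinning, chosen after seeing the data, 3 to 6 of the 23 turned and Fdft1 on DR lay between 0.63 and 0.75. Thinned, 5 to 14 genes passed in that comparison against 203. Of the other 40 values, 29 changed sign in at least 1 alternative, all of size 0.217 or less. Of the 10 most similar genes 4 were shared without centring, and 1 of 7 members kept its rank per gene body. No paired analysis was possible because each mouse gave 1 sample and groups share no sample numbers. An earlier dispersion method of edgeR, chosen after seeing the data, changed no count. Low counts limit Idi1 and Sqle most among the tested members. Fdps, with at most 7 raw counts in any mouse, could not be tested. Whether its counts reflect its expression was not tested.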
